A study of Mus musculus with 8 samples.

Results

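Macrophage genes were compared between ductus arteriosus and aorta in mouse fetuses, through all probe sets annotated to exactly 1 of Adgre1, Csf1r, Cd68, Mrc1, C1qa, C1qb, C1qc, Cx3cr1, Fcgr1 and Cd163. This gave 16 of 34945 probe sets with a single gene symbol, and 10 of 18193 genes. Before birth the ductus arteriosus lets blood pass from the pulmonary trunk into the aorta, and it constricts and seals in the newborn. Ductus segments (4 arrays) were set against segments of the aorta (4 arrays), all from untreated fetuses on day 19 of gestation, with the strain given as CD88 and the mice as wild type. Each array held total RNA of segments pooled from up to 10 pups of a single litter, so a value is a litter average and the p-values measure the spread between pools. CD88 is a name of the complement C5a receptor, the product of C5ar1. C5ar1 was read by its probe set with the highest mean. By this set it was at 9.17, 8.86, 8.64 and 9.17 (log2) in the ductus, against 9.18, 8.80, 8.97 and 9.07 in the aorta. It did not pass the test (log2 difference -0.04 ± 0.15 SE, limma adjusted p = 0.926). The weaker C5ar1 probe set was at 2.44 to 2.92 in the ductus and at 2.44 to 2.76 in the aorta. These values lay around the first quartiles of the arrays (2.74 to 2.86), so the level of C5ar1 is not settled.

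Macrophages settle in vessel walls before birth, where they clear dying cells, take up debris through scavenger receptors and make complement component C1q. Csf1r is the receptor for the growth factors Csf1 and Il34, on which most tissue macrophages depend for survival. Adgre1 encodes a surface receptor widely used to mark mouse macrophages, Cx3cr1 the fractalkine receptor, Fcgr1 the high-affinity receptor for IgG, and Cd68 a glycoprotein of endosomes and lysosomes. Mrc1, the mannose receptor, and Cd163, the receptor for haptoglobin-haemoglobin complexes, are typical of resident macrophages, and Mrc1 is also made by lymphatic and some other endothelial cells. C1qa, C1qb and C1qc encode the A, B and C chains of C1q. In pooled tissue, fewer macrophages and less RNA per macrophage cannot be told apart.

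The C1q genes are neighbours on mouse chromosome 4 (GRCm38.p6), C1qb at chr4:136880126-136886200, C1qc at chr4:136889801-136892936 and C1qa at chr4:136895916-136898844, within 18719 bases. Promoter windows are from RefSeq (GRCm38.p6, 250 bases before to 50 after the gene start, 5′ to 3′ on the gene's strand). They are shown for C1qb and C1qc, whose values moved together between ductus arrays, and for Mrc1 and Cd163, whose values separated the vessels. Capitals mark GAGGAA, a core of sites bound by the myeloid factor PU.1 (the product of Spi1), or its complement TTCCTC. The windows are at chr4:136886151-136886450 (minus strand) for C1qb, chr4:136892865-136893164 (minus strand) for C1qc, chr2:14229164-14229463 (plus strand) for Mrc1 and chr6:124304401-124304700 (plus strand) for Cd163.
C1qb: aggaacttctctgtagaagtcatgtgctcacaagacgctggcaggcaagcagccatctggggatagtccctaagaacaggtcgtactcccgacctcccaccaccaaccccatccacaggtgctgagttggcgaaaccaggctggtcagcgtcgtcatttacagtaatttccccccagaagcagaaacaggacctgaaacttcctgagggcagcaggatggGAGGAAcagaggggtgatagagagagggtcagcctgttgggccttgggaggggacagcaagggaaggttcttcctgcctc
C1qc: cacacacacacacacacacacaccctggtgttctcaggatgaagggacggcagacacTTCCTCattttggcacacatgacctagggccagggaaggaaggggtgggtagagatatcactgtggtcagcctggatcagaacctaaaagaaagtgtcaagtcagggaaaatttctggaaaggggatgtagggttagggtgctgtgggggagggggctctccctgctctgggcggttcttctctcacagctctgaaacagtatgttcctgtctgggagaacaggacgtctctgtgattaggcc
Mrc1: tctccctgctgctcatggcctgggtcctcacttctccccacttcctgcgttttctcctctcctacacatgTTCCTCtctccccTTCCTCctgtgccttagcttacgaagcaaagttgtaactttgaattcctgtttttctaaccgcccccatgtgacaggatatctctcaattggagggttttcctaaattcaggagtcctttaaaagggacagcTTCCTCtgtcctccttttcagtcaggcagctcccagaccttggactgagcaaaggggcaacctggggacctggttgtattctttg
Cd163: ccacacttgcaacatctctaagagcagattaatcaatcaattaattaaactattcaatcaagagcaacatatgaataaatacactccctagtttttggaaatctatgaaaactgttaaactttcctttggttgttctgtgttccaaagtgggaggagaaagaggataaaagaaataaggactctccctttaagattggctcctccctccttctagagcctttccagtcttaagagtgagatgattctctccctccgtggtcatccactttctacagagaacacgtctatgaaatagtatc
The C1qb window had 1 match, on the printed strand and starting 30 bases before the gene start, and the C1qc window had 1 on the other strand. The Mrc1 window had 3 matches, all on the other strand, and the Cd163 window had 0. Windows of 7 of the 10 genes were searched on both strands, and 5 held the letters, against 28.3% of 32851 windows of all genes. Those of Adgre1, Csf1r and C1qa were not searched, and the shares were not tested against each other. A match is a description of the letters and not a bound site.

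Genes of the ductus and of its smooth muscle were higher on the ductus arrays, while no gene specific to the aorta is given here. The smooth muscle actin gene Acta2 overlapped between the tissues (limma adjusted p = 0.464). Tfap2b, an AP-2 transcription factor of the ductus, was at 7.47 to 7.69 in the ductus and at 2.23 to 2.87 in the aorta, and the smooth muscle myosin gene Myh11 was at 11.19 to 11.46 in the ductus and at 10.02 to 10.61 in the aorta. Correlations over all genes were 0.986 to 0.992 within a tissue and 0.979 to 0.987 between the tissues. All values are log2 RMA values, and no detection call was used. First quartiles of the arrays were between 2.74 and 2.86. The weaker probe sets of Cx3cr1 (2.47 to 3.10 over the 8 arrays) and Fcgr1 (2.23 to 2.82) lay around this level. The other 14 member probe sets lay above it on all 8 arrays.

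None of the 10 macrophage genes passed the test between ductus and aorta. Limma called 0 of them at an adjusted p under 0.05, while 3.86% of all 18193 genes were called, 1.8% higher and 2.06% lower in the ductus. At an unadjusted p under 0.05, 2 members were lower in the ductus, Mrc1 and Cd163, and 0 were higher (9.19% of all genes were lower by this rule). Of the 10 differences, ductus minus aorta, 8 were below 0, as were 56% of all genes. Their median was -0.17 on the log2 scale, against -0.03 over all genes. Without ductus replicate 2, 4 of the 10 differences were below 0 and the median was 0.0385; without each of the other arrays in turn, 6 to 10 were below 0 and the median was -0.29 to -0.10. Tested one by one, 0 of the 16 probe sets passed, while 2.86% of the 34945 probe sets did, and the same 2 genes were below an unadjusted p of 0.05.

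**Figure D1:**
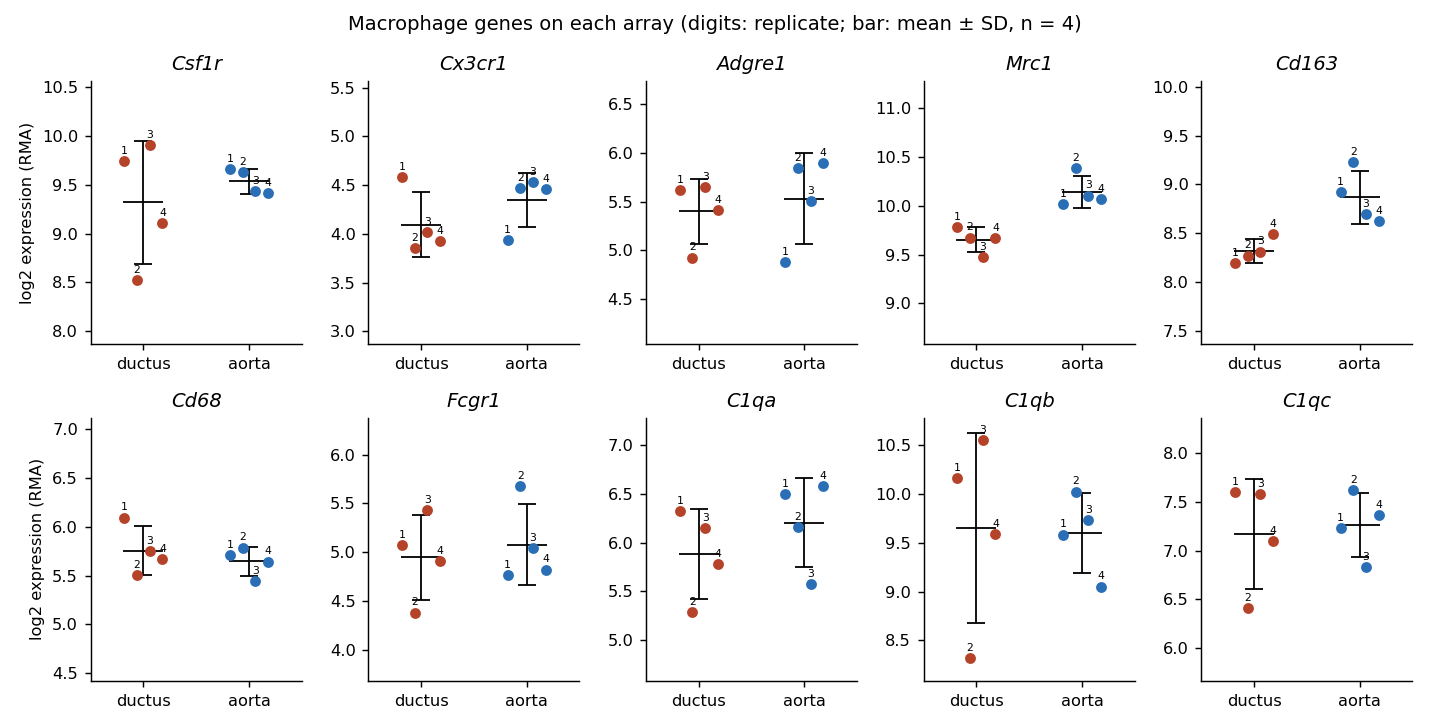
Log2 expression of the 10 macrophage genes on each array, ductus arteriosus left and aorta right, with digits for the replicate and bars for the mean ± SD (n = 4); every panel spans the same log2 range around its own centre. Mrc1 and Cd163 separate the vessels, while ductus replicate 2 is the lowest ductus array for the other 8 genes.

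Of the scavenger receptors, Mrc1 was at 9.78, 9.68, 9.47 and 9.67 in the ductus, against 10.02, 10.39, 10.11 and 10.07 in the aorta. Every ductus pool lay below every aorta pool. The log2 difference was -0.49 ± 0.12 (SE), with a 95% interval of -0.76 to -0.22, and the aorta level was 1.41-fold that of the ductus. The adjusted p of 0.0570 (limma) missed the threshold. It was under 0.05 in 6 of 19 alternative settings, among them quantile normalization of the deposited values (0.0402) and a filter to genes with a mean above log2 6 (0.0329), and it was between 0.0728 and 0.134 on leaving out any array.

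Cd163 was at 8.19, 8.27, 8.31 and 8.49 in the ductus, against 8.92, 9.23, 8.70 and 8.62 in the aorta. Its groups did not overlap either, and the closest arrays were ductus replicate 4 and aorta replicate 4. The log2 difference was -0.55 ± 0.15 (SE), with a 95% interval of -0.88 to -0.22, a 1.47-fold higher level in the aorta. It did not pass (limma adjusted p = 0.0783), and its adjusted p was between 0.0503 and 0.209 over the 19 alternatives. Ductus pools lay wholly below aorta pools for these 2 of the 10 genes, and for 6.06% of all genes. In either direction, 11.3% of all genes were without overlap.

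The growth factor receptor Csf1r was at 9.74, 8.53, 9.91 and 9.11 in the ductus, against 9.66, 9.63, 9.44 and 9.41 in the aorta. The ductus values spread widely around the narrow range of the aorta, with ductus replicates 1 and 3 above and replicates 2 and 4 below all aorta pools. The log2 difference was -0.21 ± 0.27 (SE; 95% interval -0.82 to 0.39; limma adjusted p = 0.771), and the other Csf1r probe sets gave -0.32 and -0.36. Without ductus replicate 2, the Csf1r difference was 0.050.

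Fcgr1 was at 5.07, 4.38, 5.43 and 4.91 in the ductus, against 4.77, 5.68, 5.04 and 4.82 in the aorta. The vessels overlapped, with the lowest pool in the ductus and the highest in the aorta. The log2 difference was -0.13 ± 0.26 (SE; limma adjusted p = 0.861), and it was 0.061 without ductus replicate 2 and 0.071 without aorta replicate 2. Adgre1 was at 5.61, 4.92, 5.65 and 5.41 in the ductus, against 4.88, 5.85, 5.50 and 5.90 in the aorta. Its lowest aorta pool, replicate 1, was also below every ductus pool. The difference was -0.13 ± 0.25 (SE; limma adjusted p = 0.852) and 0.027 without ductus replicate 2. The 95% interval of Fcgr1 reached from a 1.36-fold higher ductus level to a 1.63-fold higher aorta level, and that of Adgre1 from 1.34-fold to 1.60-fold in the same directions.

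The 3 C1q chains varied more between ductus pools than between the vessels. C1qb was at 10.16, 8.32, 10.55 and 9.59 in the ductus, against 9.59, 10.03, 9.74 and 9.05 in the aorta, by its probe set with the highest mean. The aorta range lay within the ductus range. The log2 difference was 0.05 ± 0.43 (SE; 95% interval -0.91 to 1.02; limma adjusted p = 0.969), so differences of up to 2.03-fold in favour of the ductus and 1.88-fold in favour of the aorta lay within the interval. Its sign turned without ductus replicate 1 (-0.115), ductus replicate 3 (-0.24) or aorta replicate 4 (-0.128).

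The 3 C1qb probe sets did not give 1 value. The 2 with the suffix x, which Affymetrix gives to sets with probes that can also bind other transcripts, gave log2 differences of 0.05 each, and the set without the suffix gave -0.36 ± 0.29 (SE; limma adjusted p = 0.631). On that set the ductus pools were at 6.49, 5.48, 6.93 and 6.03, against 6.62, 7.01, 6.38 and 6.36 in the aorta. All 3 sets had their lowest ductus value on replicate 2 and their highest on replicate 3.

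C1qc was at 7.60, 6.41, 7.58 and 7.10 in the ductus, against 7.23, 7.62, 6.83 and 7.37 in the aorta. The vessels overlapped, with the lowest pool in the ductus. The difference was -0.09 ± 0.27 (SE; limma adjusted p = 0.916), and 0.165 without ductus replicate 2 and 0.029 without aorta replicate 2. C1qa was at 6.32, 5.29, 6.15 and 5.78 in the ductus, against 6.50, 6.16, 5.57 and 6.58 in the aorta. The difference was -0.32 ± 0.27 (SE; 95% interval -0.93 to 0.29; limma adjusted p = 0.641). On leaving out each array in turn it stayed below 0, from -0.53 without aorta replicate 3 to -0.119 without ductus replicate 2.

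Cd68 was at 6.10, 5.50, 5.75 and 5.67 in the ductus, against 5.71, 5.79, 5.44 and 5.64 in the aorta. Its difference of 0.11 ± 0.14 (SE; limma adjusted p = 0.784) was the larger of the 2 that favoured the ductus, and was -0.004 without ductus replicate 1. Cx3cr1 was at 4.58, 3.86, 4.02 and 3.93 in the ductus, against 3.94, 4.47, 4.53 and 4.46 in the aorta. A high ductus replicate 1 and a low aorta replicate 1 made its groups overlap. The difference was -0.25 ± 0.19 (SE; limma adjusted p = 0.590), -0.41 without ductus replicate 1 and -0.39 without aorta replicate 1, and the weaker Cx3cr1 probe set gave 0.002.

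**Figure D2:**
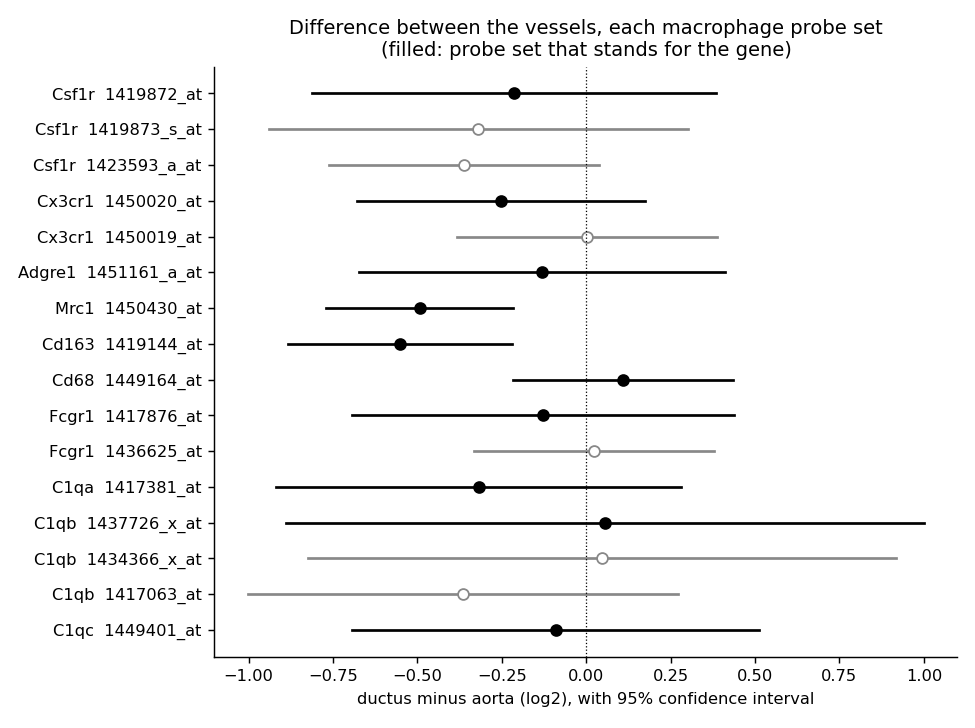
Ductus minus aorta on the log2 scale for each of the 16 macrophage probe sets, with 95% confidence intervals from the fit over all probe sets; filled points stand for the gene and open points are its other probe sets. The intervals of Mrc1 and Cd163 lie below 0, and those of the other 14 probe sets include 0.

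Most members varied together between pools, Mrc1 and Cd163 less so. To describe this, each value was set against the mean of its own tissue. Ductus replicate 2 was below the ductus mean for 9 of the 10 genes, with a median deviation of -0.52 on the log2 scale, and was the lowest ductus array for 8 of them, compared with 30.6% of all genes. This array was also the lowest ductus array by mean level for 10 of 18 other gene lists, among them the smooth muscle, endothelial, lysosome and B cell lists, and for the mean of all genes (5.77, against 5.81 to 5.87 on the other ductus arrays). Ductus replicate 1 was above the ductus mean for 9 genes (median deviation 0.38), and aorta replicate 2 above the aorta mean for 9 (0.28). Over all genes the median deviations of these 3 arrays were -0.03, 0.01 and 0.01. The share of all genes above the tissue mean was 42% on ductus replicate 2, 53.4% on ductus replicate 1 and 52.6% on aorta replicate 2.

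The deviations were largest in C1qb, at 0.51, -1.34, 0.90 and -0.07 on ductus replicates 1 to 4. Csf1r, at 0.42, -0.79, 0.58 and -0.21, and C1qc, at 0.43, -0.77, 0.41 and -0.07, had the same ductus arrays above and below the mean. Mrc1 deviated by 0.13, 0.02, -0.18 and 0.02, and Cd163 by -0.12, -0.05, -0.01 and 0.17. Between ductus pools, Mrc1 and Cd163 thus moved by no more than 0.18 from their mean. On aorta replicates 1 to 4, Mrc1 deviated by -0.13, 0.24, -0.04 and -0.08, and Cd163 by 0.05, 0.36, -0.17 and -0.24. Csf1r moved by no more than 0.12 in the aorta. On aorta replicates 3 and 4, C1qb deviated by 0.13 and -0.55, against -0.43 and 0.11 for C1qc.

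**Figure D3:**
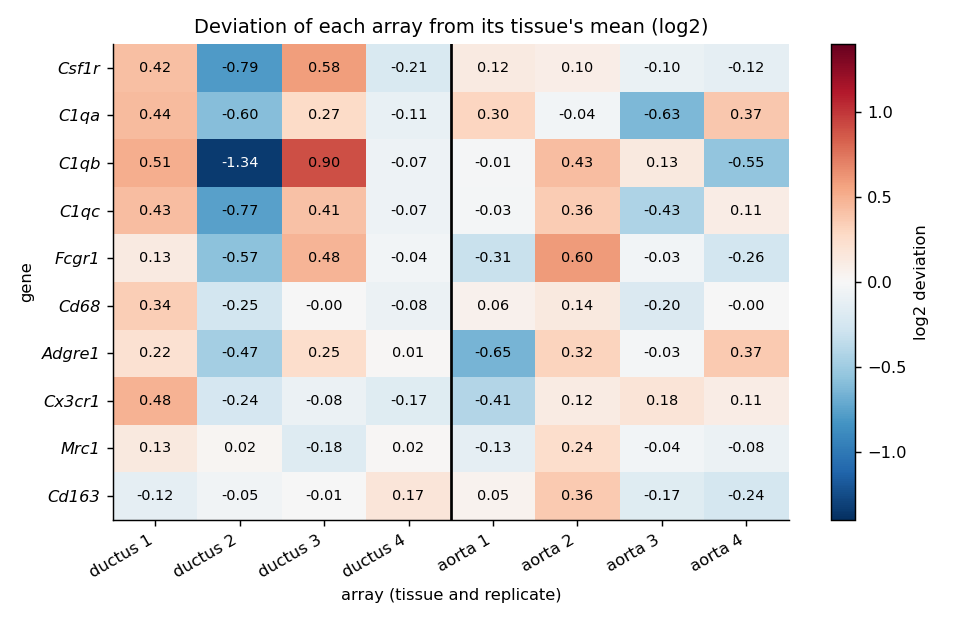
Deviation of each array from the mean of its own tissue, on the log2 scale, for the 10 macrophage genes (rows) on the ductus and aorta arrays (columns); red is above and blue below the tissue mean. Ductus replicate 2 is blue for 9 of 10 genes, and the rows of Mrc1 and Cd163 are pale across the ductus arrays.

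Pearson correlations of these deviations over the 8 arrays are given as a description without a test, since the arrays form 2 tissues of 4. The 45 pairs of members had a median of 0.464, and 40 were above 0. No such median was computed for pairs of other genes. The 16 pairs of Mrc1 or Cd163 with the other 8 genes had a median of 0.163, and 5 were at or below 0. The 28 pairs among the other 8 ran from 0.179 to 0.934, with a median of 0.627. These values depended on ductus replicate 2. Without it, the median of all pairs was 0.324, that of the 16 pairs 0.218 and that of the 28 pairs 0.41. Of the 45 pairs 36 were then above 0, and the 28 pairs ran from -0.165 to 0.797. C1qa with C1qb then fell to -0.127 from 0.466, and C1qb with C1qc to 0.418 from 0.8.

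The genes whose deviations most resembled the members' mean were Ctnna1 (0.993), Stab1 (0.991), Magi3 (0.980), Actr8 (0.980), Trappc3 (0.977), Rxylt1 (0.976), Slc12a7 (0.974) and Perp (0.973), by Pearson correlation over 8 arrays. They were ranked among 8261 genes with a mean above log2 6, leaving out the members and genes with model or clone names. With so few arrays, high values were common: 125 genes, or 1.51%, were above 0.9. Over the 8261 genes, the median correlation with the members' mean was 0.2 and the upper quartile 0.527. Stab1, the scavenger receptor stabilin 1 of macrophages and sinusoidal endothelium, was at 7.97, 6.995, 8.01 and 7.54 in the ductus, against 8.30, 8.90, 8.25 and 8.44 in the aorta. Every ductus pool was below every aorta pool, and the difference of -0.85 ± 0.24 (SE) did not pass (limma adjusted p = 0.0948). Tyrobp, the signalling adaptor of many myeloid receptors, came ninth (0.969) and did not separate the vessels (log2 difference 0.18 ± 0.25, SE; limma adjusted p = 0.800).

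In a list of ligands, partners and related genes of the members, 2 of 12 genes were lower in the ductus and 0 higher. Over all genes, 2.06% were called lower and 1.8% higher. The list also held Csf2ra, Csf2rb and Hmox1. Csf1, the ligand of Csf1r, was at 5.84, 5.62, 6.15 and 5.49 in the ductus, against 6.82, 6.75, 6.22 and 6.78 in the aorta. The groups did not overlap, although aorta replicate 3 came close to ductus replicate 3. The level was 1.82-fold higher in the aorta (log2 difference -0.86 ± 0.18, SE; limma adjusted p = 0.0315). The call held without ductus replicate 3 (adjusted p = 0.0219) or aorta replicate 3 (0.0133), and was lost without any of the other 6 arrays (0.0736 to 0.0927). All 4 Csf1 probe sets were lower in the ductus, by 0.50 to 0.91.

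Il34, the second ligand of Csf1r, was at 2.95 to 3.37 in the ductus and at 2.87 to 3.21 in the aorta, little above the first quartiles of the arrays, and its difference was 0.10 ± 0.13 (SE; limma adjusted p = 0.773). Cx3cl1, the ligand of Cx3cr1, was at 3.07 to 3.69 in the ductus and at 2.97 to 3.79 in the aorta (adjusted p = 0.804, limma). Fcer1g, the signalling chain that pairs with Fcgr1, was at 7.38 to 7.83 in the ductus and at 7.58 to 8.03 in the aorta (adjusted p = 0.769, limma).

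Serping1, the C1 inhibitor that stops the proteases bound to C1q, was at 8.97, 8.73, 9.12 and 8.68 in the ductus, against 9.91, 9.92, 9.43 and 9.65 in the aorta. All ductus pools were below all aorta pools. The level was 1.81-fold higher in the aorta (log2 difference -0.85 ± 0.15, SE; limma adjusted p = 0.0131), and the call held without each array in turn (adjusted p up to 0.0474). C1ra, a protease of the C1 complex, was also without overlap (4.94 to 5.62 in the ductus, 5.80 to 6.24 in the aorta) but missed the threshold (log2 difference -0.69 ± 0.16, SE; limma adjusted p = 0.0504; 0.0257 without ductus replicate 3 and 0.0682 to 0.135 without each of the others). Its partner C1s1 differed by -0.07 ± 0.16 (SE; limma adjusted p = 0.890). Limma called 0 of 11 other complement genes. At its unadjusted p under 0.05, 1 was higher and 3 were lower in the ductus (9.19% of all genes were lower). Among the lower was C3ar1, the C3a receptor (log2 difference -0.76 ± 0.23, SE; limma adjusted p = 0.118). The higher was Cd55, which speeds the decay of complement convertases, at 8.97, 8.65, 9.03 and 8.69 in the ductus, against 8.38, 8.41, 7.95 and 8.24 in the aorta. Its groups did not overlap, and it missed the threshold (log2 difference 0.59 ± 0.14, SE; limma adjusted p = 0.0559).

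Of 14 genes of fetal and resident macrophages, 2 were lower in the ductus and 0 higher (2.06% and 1.8% of all genes). At an unadjusted p under 0.05 (limma) there were 4 lower and 2 higher. Over all genes, 9.19% were lower by this rule and 16.1% passed it in either direction. Gas6, a bridging ligand of the Axl and Mertk receptors that is also made by other vessel wall cells, was at 9.01, 8.96, 8.86 and 8.97 in the ductus, against 9.81, 9.91, 9.45 and 9.63 in the aorta (1.68-fold higher in the aorta; limma adjusted p = 0.00856). The call held without each array in turn. Lyve1, a hyaluronan receptor of resident macrophages and of lymphatic endothelium, was at 8.08, 8.27, 8.28 and 7.83 in the ductus, against 9.01, 9.07, 8.45 and 8.80 in the aorta. The aorta level was 1.65-fold that of the ductus (limma adjusted p = 0.0434), and both Lyve1 probe sets were lower in the ductus (-0.72 and -0.94). The call was kept without aorta replicate 3 (0.0176) and lost without any of the other 7 arrays (0.0634 to 0.123). Folr2 and Timd4, further genes of resident macrophages, did not pass (log2 differences of -0.19 ± 0.16 and 0.37 ± 0.24, SE; limma adjusted p = 0.630 and 0.512). The 2 higher genes were Igf1, a growth factor that other vessel wall cells also make, and Cbr2, a carbonyl reductase. Igf1 was at 9.27 to 9.43 in the ductus and at 8.77 to 9.05 in the aorta, without overlap (log2 difference 0.41 ± 0.10, SE; limma adjusted p = 0.0608). Cbr2 overlapped (log2 difference 0.65 ± 0.25, SE; limma adjusted p = 0.238).

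**Figure D4:**
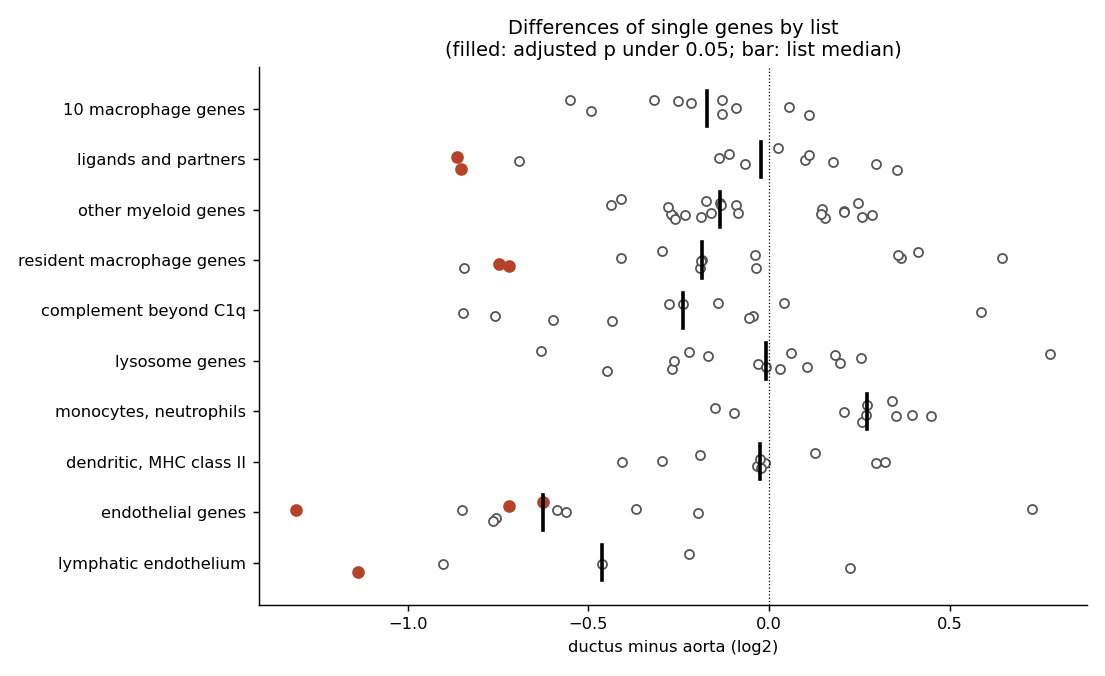
Ductus minus aorta on the log2 scale for single genes, by list; open points did not pass, filled points had a limma adjusted p under 0.05 and bars are list medians. No gene passed among the 10 macrophage genes, the other myeloid genes or the list of complement genes beyond C1q. Some partner genes (among them the C1 inhibitor gene Serping1), resident macrophage, endothelial and lymphatic genes passed, all lower in the ductus.

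Other myeloid genes resembled the members in having no call. Limma called 0 of 22 genes, with 1 at an unadjusted p under 0.05 (Mertk, a receptor for uptake of dying cells; log2 difference -0.41 ± 0.17, SE; adjusted p = 0.281). The list's median difference was -0.13. Its mean log2 level was at 5.98 to 6.47 on the ductus arrays, lowest on replicate 2, and at 6.21 to 6.40 on the aorta arrays. Spi1, the gene of PU.1, was at 4.14, 3.48, 4.09 and 4.26 in the ductus, against 4.06, 4.17, 4.01 and 4.10 in the aorta, and Aif1, a general macrophage marker, at 5.32, 4.13, 4.79 and 5.29 in the ductus, against 5.39, 5.34, 5.29 and 5.27 in the aorta. Both were lowest on ductus replicate 2.

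At an unadjusted p under 0.05 in either direction were 16.1% of all genes. Limma also called 0 of 15 lysosome genes (3 at an unadjusted p under 0.05, 1 higher and 2 lower). It called 0 of 10 monocyte and neutrophil genes (1, higher), 0 of 10 dendritic cell and MHC class II genes (1, lower) and 0 of 9 genes shared by leukocytes (1, higher). Of these 3 lists, 2, 7 and 2 genes had differences below 0, and the medians were 0.27, -0.02 and 0.13. Calls were also 0 of 8 mast cell genes (0), 0 of 5 B cell genes (0), 0 of 4 erythroid genes (0) and 0 of 6 brown adipocyte genes (0). In the smooth muscle list, 5 of 10 genes rose in the ductus and 0 fell. Thymocyte and T cell genes had a list mean of 3.84 to 7.24 on the ductus arrays and 3.44 to 6.52 on the aorta arrays, with 0 of 11 called and 0 at an unadjusted p under 0.05. Their ductus order differed from that of the members: replicate 4 was lowest (3.84), and replicate 2, lowest for 8 members, was at 5.14. Ptprc, the CD45 gene that all leukocytes share, was at 8.88, 7.64, 7.93 and 7.40 in the ductus, against 7.21, 6.68, 6.67 and 8.03 in the aorta (log2 difference 0.81 ± 0.37, SE; limma adjusted p = 0.324), with the highest value of each tissue on the array with the highest thymocyte mean.

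Most endothelial genes also lay lower in the ductus, and some endothelial cells make Mrc1, Lyve1 and Stab1 as macrophages do. The endothelial list mean was 7.43 to 7.68 on the ductus arrays and 7.86 to 8.27 on the aorta arrays. Limma called 3 of 11 genes lower in the ductus and 0 higher. Of the 11 differences, 10 were below 0, with a median of -0.63, against 56% and -0.03 over all genes. At an unadjusted p under 0.05 (limma), 9 were lower and 1 was higher, against 9.19% of all genes lower and 16.1% in either direction. Pecam1 was 1.54-fold (limma adjusted p = 0.0242), Tek 1.65-fold (0.00907) and Cldn5 2.48-fold higher in the aorta (0.0154). The Pecam1 call was lost without ductus replicate 1, 2 or 3 or aorta replicate 2 (0.0596 to 0.0735) and that of Cldn5 without ductus replicate 4 (0.0522). Not all of the list lay lower: Erg, an endothelial transcription factor, was at 5.36 to 6.15 in the ductus and at 4.85 to 5.32 in the aorta, without overlap, and missed the threshold (log2 difference 0.73 ± 0.18, SE; limma adjusted p = 0.0595).

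Of 5 lymphatic endothelial genes, 1 was lower in the ductus, Pdpn, which mesothelial cells also make. The list mean was 7.09 to 7.76 in the ductus and 6.98 to 8.40 in the aorta, lowest on aorta replicate 3. Prox1, which defines lymphatic endothelium, was at 7.60 to 7.83 in the ductus and at 6.85 to 8.75 in the aorta (log2 difference -0.22 ± 0.34, SE; limma adjusted p = 0.814). Of 10 mesothelial genes 8 were lower in the ductus, with a list mean of 6.34 to 6.99 in the ductus and 7.69 to 9.19 in the aorta, and of 9 fibroblast genes 1 was. The part of endothelial, lymphatic, mesothelial and other cells in the lower ductus values of Mrc1, Cd163, Csf1, Serping1, Gas6 and Lyve1 was not tested.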

How the data were processed

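Total RNA of pooled ductus and aorta segments was hybridised to Affymetrix arrays for the mouse, with 4 pools and 4 arrays per tissue. The authors deposited log2 values, and Partek 6.6 and RMA are named per the submitters' processing notes, whose order and settings were not given in the sources used here. Of 45101 probe sets, 64 controls, 9160 not listed in the annotation used and 932 with several symbols were left out. Of the 34945 kept, 34741 were matched by gene ID to the RefSeq gene table. For each of 18193 genes, the probe set with the highest 8-array mean was taken, with no low-value filter.

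Differences, ductus minus aorta, were tested with limma 3.58.1 in R 4.3.3 (lmFit, eBayes, two-sided, no covariate). P-values were adjusted by Benjamini-Hochberg over all genes, or over all probe sets where these were tested singly, and called under 0.05. Intervals are 95% confidence intervals of the fit. The precision is limited by the number of arrays.

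The members and gene lists were chosen with earlier results of these data known. Genes named outside the members were the listed partners and markers, up to 4 called genes per list or, in lists without a call, up to 2 of largest difference, and the 8 genes most like the members; Tfap2b, Prox1, Cd55, Igf1, Cbr2, Erg, the rank of Tyrobp, the split of Mrc1 and Cd163 from the other 8 members and the promoters shown were picked after the values were seen. Some listed genes were not named in the annotation used and were not analysed here. Alternatives covered the probe set, scaling, low-value filter, variance prior, array weights, replicate block, a 2-fold minimum and leaving out each array.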

Additional observations from a re-analysis of the deposited data

Results flagged for a closer look

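Among 48 groups of 4 arrays examined (the 16 macrophage probe sets and 8 partner genes in each tissue), 3 held an array far from the other 3, and chance flags about 5% of groups. Csf1 was at 6.22 on aorta replicate 3, against 6.75 to 6.82 on the other aorta arrays, and this lowest aorta value lay next to the ductus range. Cx3cr1 was at 3.94 on aorta replicate 1, against 4.46 to 4.53 on the others, so this array lay among the ductus pools. The weaker Fcgr1 probe set was at 2.23 on ductus replicate 1, against 2.75 to 2.82 on the others, around the first quartile of the arrays.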

How the results depend on the processing

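The count of members higher in the ductus was 0 in all 19 alternatives. The count lower in the ductus was 0 in 13 and 1, always Mrc1, in the other 6: the mean over probe sets, quantile normalization, either low-value filter, the trended robust prior and array weights. The log2 difference of C1qb turned to -0.087 with the mean over probe sets and -0.048 with array weights. On leaving out each array it ran from -0.24 to 0.50, that of Adgre1 from -0.35 to 0.027, Csf1r from -0.41 to 0.050, Cd68 from -0.004 to 0.19, C1qc from -0.23 to 0.165 and Fcgr1 from -0.29 to 0.071; no adjusted p of these genes was under 0.05. The members' median ran from -0.29 to 0.04 over these arrays. The low-value filters left out Cx3cr1, and above log2 6 also Adgre1, Cd68 and Fcgr1. Over all genes, 328 higher and 374 lower calls became 186 and 202 with a 2-fold minimum. Leaving out 1 array gave 233 to 289 higher and 201 to 419 lower calls. With the replicate number as a block, 208 higher and 195 lower genes were called, 0 members among them (Mrc1 adjusted p = 0.165). The labels do not say that equal numbers share a litter, same-numbered arrays had correlations of -0.227 to -0.068 in their deviations, and 0 of 4 ductus arrays correlated best with their own number. The cause of these changes was not tested. No detection call was used, so how far the weakest probe sets stand above background is not known.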
